A study of Mus musculus with 4 samples.

Results

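Tox and Tox2, paralogous genes for DNA-binding proteins with an HMG box, were measured in every T cell of a single-cell RNA series. They are 2 of the 32285 genes in each matrix and were picked by gene symbol, with no cut on a measured value. Earlier results of these data were known when they were chosen. The 4 libraries hold CD8 T cells sorted for CD44, an antigen-experience marker, and CD90.1, an allele of Thy1, from tumour-draining lymph nodes of C57BL/6 mice at day 14 after implantation. The M9 group (2 libraries) is labelled as high affinity GP33 and the C6M9 group (2 libraries) as low affinity GP33, GP33 being a viral peptide seen by CD8 T cells. Both groups share the mouse strain, the sort, the tissue and the day. Cells of 10 mice (M9) and 35 mice (C6M9) were pooled, and neither the age nor the split of mice over libraries is given in the sources used here. Each p and SE from a fit over libraries therefore measures the spread between libraries, which may be technical.

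TOX is known to be induced by calcineurin and NFAT signalling downstream of the T cell receptor (TCR). It is needed for exhausted CD8 T cells to form and persist under lasting antigen, and it is usually found together with inhibitory receptors such as PD-1. TOX2 is a paralog known from exhausted CD8 T cells and from follicular helper T cells. TOX proteins bind DNA through the HMG box and are reported to associate with the HBO1 histone acetyltransferase complex. The TCR-induced NR4A and EGR factors act in the same pathway.

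After filtering, the libraries held 4100 and 1199 T cells (M9 replicates 1 and 2) and 2889 and 1733 T cells (C6M9 replicates 1 and 2), with 32311460 to 71628648 UMIs (unique molecular identifiers, each 1 counted RNA molecule) per library. Cd8a, the CD8 chain, stood at 520 to 582 CPM (UMIs of a gene per 1000000 UMIs counted) in all 4, and Cd3e, Thy1 and Cd44 were detected in each. Libraries shared 0 to 4 cell barcodes per pair. The cells were split into 9 states by clustering, each named by its leading gene, with a cell type name only where at least 3 of its 10 leading genes were markers of that type. They are a TCR-activated-like state led by Tnfrsf4, 2 cycling-like states (Ccnb2-led and Hist1h2ap-led), an effector-like state led by Klre1, a memory-like state led by Ccl5, and an interferon-like state led by Ifit3. The Izumo1r-led (Izumo1r encodes folate receptor 4), Xcl1-led and Gzma-led states have no type name. Srm, Nolc1 and Nop16, genes of growth and ribosome assembly, were among the leading genes of the Xcl1-led state. Tox was among the genes used for clustering and Tox2 was not, so levels across states are given as descriptions. CD4 and regulatory T cell markers summed to 104 and 79.0 CPM in M9 and to 56.6 and 62.0 CPM in C6M9, with all 7 detected; Cd4 itself was at 1.06 to 3.17 CPM and Foxp3 at 0.177 to 0.650 CPM. The summed level of 8 NK and innate lymphoid markers, all detected, was 245 and 241 CPM in M9 and 141 and 140 CPM in C6M9. These markers include Eomes, also a leading gene of the Izumo1r-led state, so the sum is not one of NK cells alone. Gamma delta T cell markers, 6 of 7 detected, summed to 406 and 404 CPM in M9 and to 390 and 417 CPM in C6M9. The part of these markers in the Tox and Tox2 results was not tested.

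The genes are separate loci. In GENCODE on GRCm38, Tox (ENSMUSG00000041272) lies at chr4:6686353-6991557 on the minus strand and Tox2 (ENSMUSG00000074607) at chr2:163203125-163324170 on the plus strand, each protein-coding. Their most alike coding stretch of 150 bases, in exon 5 of 9 of the longest coding transcript of each gene, is shown. Read positions were not examined, so whether any counts came from this stretch was not tested. Capitals mark the 28 positions at which they differ.
Tox: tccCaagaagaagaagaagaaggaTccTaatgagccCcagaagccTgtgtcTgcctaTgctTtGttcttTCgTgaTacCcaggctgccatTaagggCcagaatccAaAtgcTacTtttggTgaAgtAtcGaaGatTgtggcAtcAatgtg
Tox2: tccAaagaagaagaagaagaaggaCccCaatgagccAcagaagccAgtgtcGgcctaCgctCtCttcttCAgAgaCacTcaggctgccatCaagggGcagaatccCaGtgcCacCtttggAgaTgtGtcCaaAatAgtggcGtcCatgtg
The Tox stretch is chr4:6722166-6722315 (minus strand) and the Tox2 stretch chr2:163315845-163315994 (plus strand), both written 5′ to 3′ in the sense of the gene. Of the 150 bases, 122 (81.3%) were identical without gaps. The longest run of identical bases between any annotated Tox and any annotated Tox2 transcript was 20 bases. The 3′ libraries count whole genes, so transcripts of a gene were not told apart.

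Both genes were lower in C6M9 than in M9, and Tox2 was much the scarcer of the pair in UMIs. Over all T cells Tox gave 12646 and 6208 UMIs in M9 and 4931 and 5561 in C6M9. Scaled for depth, this was 176 and 182 CPM in M9 and 75.3 and 94.0 CPM in C6M9, so that both C6M9 libraries lay below both M9 libraries. Tox fell by 1.08 on the log2 scale (SE 0.11, 2.12-fold; adjusted p = 0.00262, edgeR quasi-likelihood test over 13652 genes). Tox2 gave 596 and 332 UMIs in M9 and 209 and 171 in C6M9. These were 8.31 and 9.74 CPM in M9 and 3.19 and 2.89 CPM in C6M9, again without overlap. Tox2 fell by 1.56 on the log2 scale (SE 0.14, 2.95-fold; adjusted p = 0.00127, edgeR). Of all genes tested, 4.2% were called lower and 29.5% had both C6M9 libraries below both M9 libraries. The other TOX family members were not called. Tox4, a widely expressed relative, stood at 79.7 and 70.1 CPM in M9 and at 66.7 and 71.4 CPM in C6M9 (log2 difference -0.12, SE 0.09; adjusted p = 0.468, edgeR), and Tox3 did not pass the filter on low counts. In bulk sums such as these, fewer Tox-expressing cells and less Tox RNA per cell cannot be told apart, so shares of cells and states were examined next.

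Fewer C6M9 cells held a Tox UMI. With every cell thinned to 5000 UMIs, Tox was detected in 57.5% and 61.4% of M9 cells and in 32.0% and 38.9% of C6M9 cells, over 1175 to 4051 cells per library. The exact 95% binomial intervals, which cover counting error alone, were 55.9 to 59.0%, 58.6 to 64.2%, 30.3 to 33.8% and 36.6 to 41.3%. The groups did not overlap, and the difference of means was -24.0 percentage points. With 2 libraries a group, the smallest p an exact permutation test (two-sided) can give is 0.333, and it gave that value. Without thinning, the shares averaged 89.1% in M9 and 71.3% in C6M9. B cell-like cells served as a background for free RNA: Tox was seen in 2 of 29 (6.90%) of those without a Cd8a UMI and in 19 of 62 (30.6%) of those with one, against 47.3% of T cells at the same depth. Before thinning, the median was 7315 UMIs in B cell-like cells without a Cd8a UMI, 28867 in those with one and 15449 in T cells.

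Tox2 was detected in few cells at any depth. At 5000 UMIs per cell it was seen in 3.53% and 4.17% of M9 cells and in 0.908% and 1.51% of C6M9 cells, again without overlap (permutation p = 0.333, the smallest possible). Without thinning the shares averaged 12.2% in M9 and 5.93% in C6M9. In B cell-like cells Tox2 was seen in 0 of 91, which allows a share of up to 3.30%. The exact 95% upper bound for the same count is 3.97%. The shares of both C6M9 libraries and of M9 replicate 1 lie under that bound, so these 91 cells are too few to set those shares apart from background. Of the 91, 62 held a Cd8a UMI. The Tox2 share varied by state. In M9 replicate 1 it was 4.96% in Izumo1r-led cells (exact 95% interval 3.93 to 6.16%) and 0.452% in memory-like cells (0.0115 to 2.50%). The free RNA part of the Tox2 counts was not tested.

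Across states Tox was highest in the Izumo1r-led cells and lowest in the Gzma-led cells, in both groups. In Izumo1r-led cells it reached 279 and 327 CPM in M9 and 204 and 200 CPM in C6M9, the highest of the 9 states in every library. Tnfrsf4-led TCR-activated-like cells followed, at 221 and 280 CPM in M9 and 145 and 163 CPM in C6M9. In M9 these 2 states overlapped. The C6M9 libraries had 29 and 27 Tnfrsf4-led cells, so this state was not tested. The Klre1-led, Ifit3-led and Xcl1-led states lay next in M9, at means of 178 ± 17.2, 168 ± 2.20 and 167 ± 30.5 CPM (SD, n = 2), which did not differ beyond their spread. Both cycling-like states were lower still, at 110 ± 1.14 CPM (Ccnb2-led) and 106 ± 0.612 CPM (Hist1h2ap-led) in M9 and at 64.1 ± 5.62 and 71.9 ± 11.2 CPM in C6M9 (SD, n = 2). Gzma-led cells, which carry the granzyme A and B genes of killing, held 30.2 and 27.3 CPM of Tox in M9 and 29.1 and 40.4 CPM in C6M9. This was the only state whose mean was not lower in C6M9, and M9 replicate 2 had 14 such cells, so it was not tested.

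Tox2 kept the same peak but a different order below it. It was highest in Izumo1r-led cells, at 14.6 and 22.6 CPM in M9 and 11.6 and 9.89 CPM in C6M9. The cycling-like states had the next highest means, whereas for Tox they were near the bottom: Ccnb2-led cells held 11.5 and 12.9 CPM in M9 and 5.21 and 4.63 CPM in C6M9. Hist1h2ap-led cells held 7.98 and 9.93 CPM in M9 and 4.15 and 3.52 CPM in C6M9. Tnfrsf4-led cells, second for Tox, had 4.63 and 5.20 CPM of Tox2 in M9 and 4.19 and 2.49 CPM in C6M9, where they overlapped the Hist1h2ap-led cells. The Klre1-led and Gzma-led states were at the bottom, with 1 to 16 Tox2 UMIs per library in Klre1-led cells and 0 to 11 in Gzma-led cells. Over 28 sums (7 states in 4 libraries) the log2 levels of Tox and Tox2 correlated at r = 0.41, a description of sums that share libraries and clustering.

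**Figure D1:**
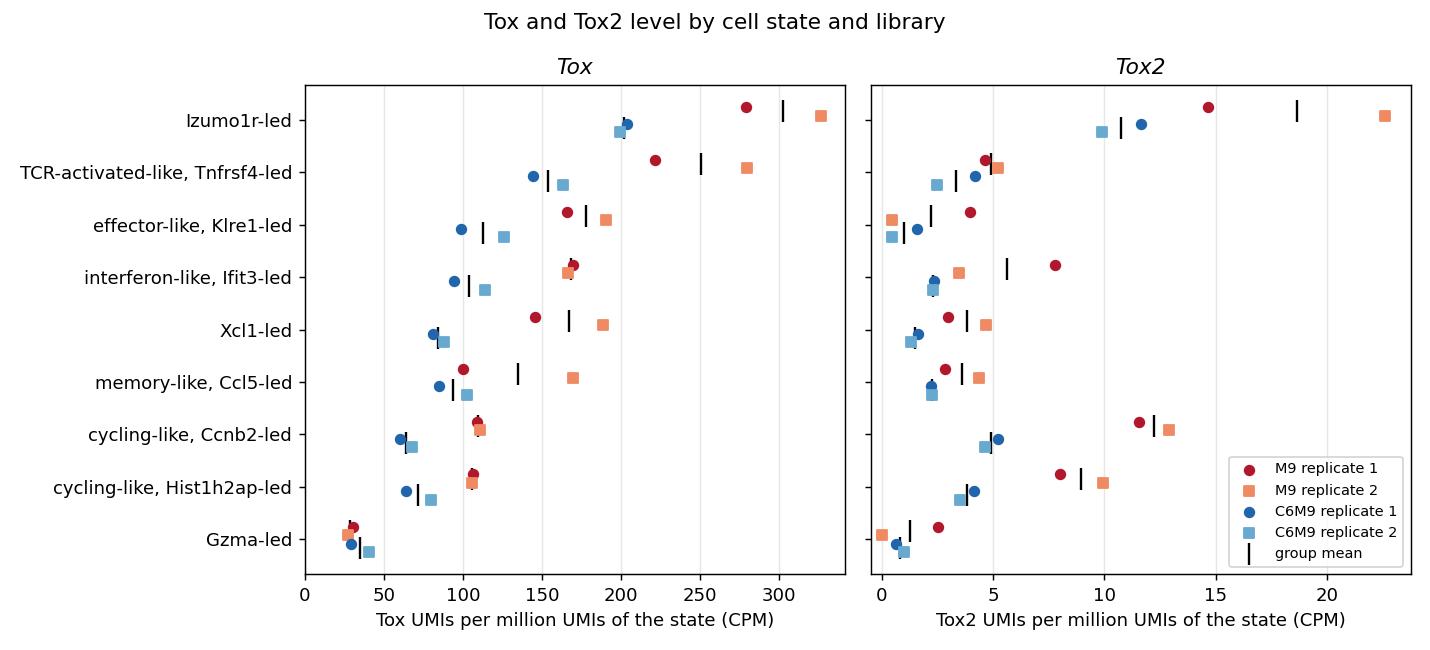
Each point is the level of Tox (left) or Tox2 (right) in 1 library and 1 of 9 cell states, in CPM within that state; black ticks are group means of 2 libraries, and states are ordered by the Tox mean in M9. Izumo1r-led cells are highest for both genes, and the cycling-like states rank near the bottom for Tox and just below the Izumo1r-led cells for Tox2.

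Within states the Tox difference was negative in all 7 tested, and each was smaller than over all T cells. It was called lower in 3 of 7 states: by 0.90 (SE 0.14; adjusted p = 0.00107) in Xcl1-led cells, 0.69 (SE 0.12; adjusted p = 0.00528) in interferon-like cells and 0.72 (SE 0.11; adjusted p = 0.0309) in Ccnb2-led cycling-like cells, on the log2 scale and by edgeR. In those states 2.17%, 1.51% and 0.297% of all genes tested were called lower, and in the other 4 states 0.0401% (Izumo1r-led), 0.28% (Klre1-led), 0.461% (Hist1h2ap-led) and 0.452% (memory-like). The other log2 differences were -0.53 in Izumo1r-led cells (adjusted p = 0.183), -0.55 in Klre1-led cells (0.0629), -0.51 in Hist1h2ap-led cells (0.0747) and -0.47 in memory-like cells (0.310). The libraries of the 2 groups did not overlap in 6 of the 7, memory-like cells being the exception, at 100 and 170 CPM in M9 and 84.8 and 103 CPM in C6M9. That lack of overlap, with C6M9 lower, was seen in 19.7% of genes in Izumo1r-led, 19.6% in Ccnb2-led, 22.4% in Klre1-led and 19% in memory-like cells. It was seen in 21.2% in interferon-like, 23.1% in Xcl1-led and 23.4% in Hist1h2ap-led cells. The number of states called depended on 2 libraries: it was 6 without M9 replicate 1 and 1 without C6M9 replicate 1.

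Tox2 passed the filter on low counts in 5 of the 7 states. It was called lower in Hist1h2ap-led cycling-like cells, where it fell by 1.15 on the log2 scale (SE 0.20; adjusted p = 0.0299, edgeR). In Ccnb2-led cells the difference was -1.24 (SE 0.23; adjusted p = 0.0654), in interferon-like cells -1.33 (0.206), in Izumo1r-led cells -0.71 (0.667) and in memory-like cells -0.63 (0.734). The Hist1h2ap-led call was lost without M9 replicate 2 (adjusted p = 0.0555) or either C6M9 library (0.121 without replicate 1 and 0.405 without replicate 2). Clusters made without Tox, Tox2 and the inhibitory receptors gave 3 states called for Tox2 and 4 for Tox. Whether the group difference varied between states was tested by an interaction term. That term gave an adjusted p of 0.383 for Tox and 0.863 for Tox2 (edgeR), in a test that called 5.23% of genes. For Tox it passed without M9 replicate 2 (adjusted p = 0.0406).

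**Figure D2:**
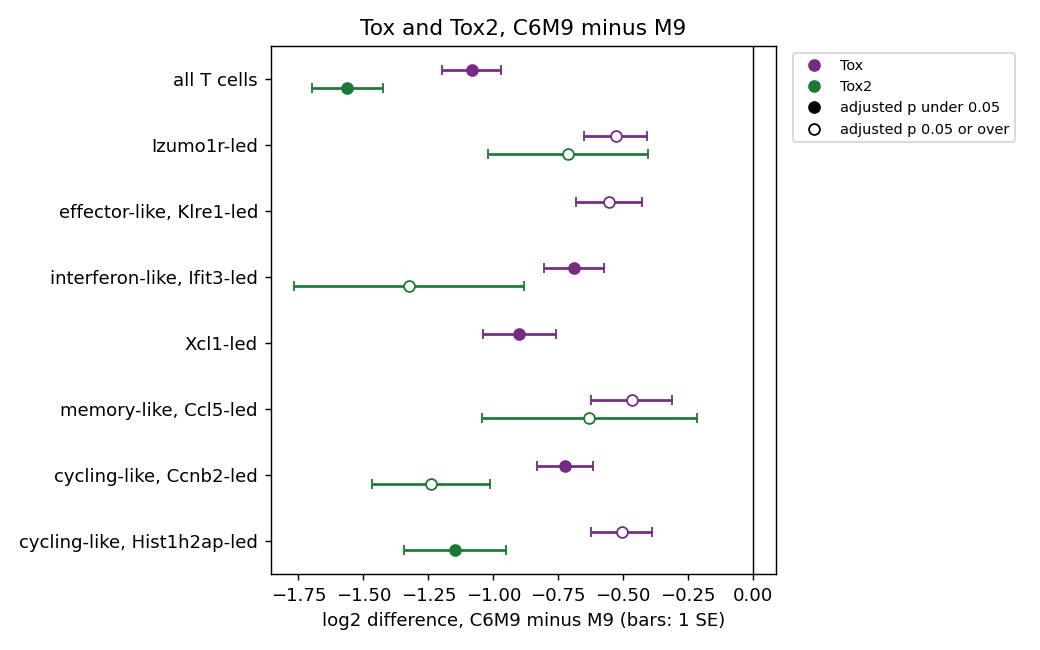
Points are log2 differences (C6M9 minus M9) of Tox and Tox2 from edgeR over all T cells and in the 7 tested states, with bars of 1 SE; filled points have an adjusted p under 0.05. All points lie left of 0; Tox2 has no point in the Klre1-led and Xcl1-led states, where it did not pass the filter.

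The cell states that carried Tox and Tox2 differed between the groups. Izumo1r-led cells were 1572 and 380 of the M9 cells and gave 41.9% and 37.2% of M9 Tox UMIs, but only 103 and 96 of the C6M9 cells and 4.62% and 6.17% of C6M9 Tox UMIs. In C6M9 the Hist1h2ap-led cycling-like cells (29.4% and 27.8%) and the memory-like cells (26.5% and 21.1%) gave the largest shares of the Tox UMIs. For Tox2 the shift was from Izumo1r-led cells, with 46.6% and 48.2% of M9 Tox2 UMIs, to Hist1h2ap-led cells, with 45.0% and 39.8% of C6M9 Tox2 UMIs. The Tox2 shares are likewise not thinned, and the deep Hist1h2ap-led cells weigh more in them. To separate state make-up from level within states, the M9 levels were weighted by the C6M9 mix of states and the reverse. The mix is each state's share of UMIs, not of cells, so states with deep cells weigh more in it. The C6M9 mix alone moved Tox from 185 to 125 CPM (log2 difference -0.57), the C6M9 levels alone to 119 CPM (-0.64), and both together to 82.4 CPM (-1.17). For Tox2 the mix alone moved 9.38 to 6.45 CPM (-0.54), the levels alone to 4.88 CPM (-0.94), and both to 2.97 CPM (-1.66). Mix and level thus moved Tox by like amounts, whereas for Tox2 the level within states moved more. With the 7 tested states weighted equally, Tox was 167 ± 18.5 CPM in M9 and 105 ± 9.17 CPM in C6M9, and Tox2 was 7.87 ± 0.676 and 3.79 ± 0.443 CPM (SD, n = 2; exact permutation p = 0.333 for each, the smallest possible). State borders were drawn on cells of both groups, and cluster sizes can move with genes that differ between them.

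**Figure D3:**
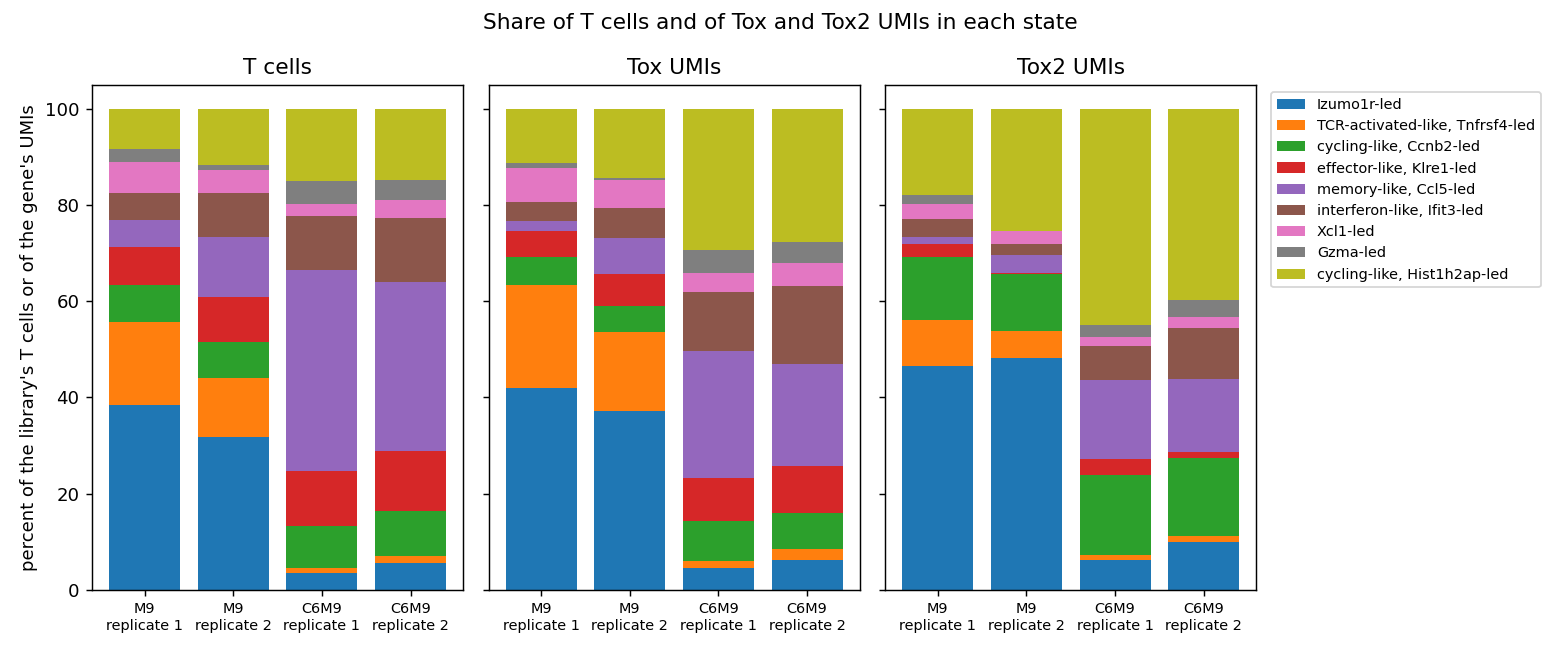
Stacked bars give the percent of each library's T cells (left), Tox UMIs (middle) and Tox2 UMIs (right) that fall in each of the 9 states. Izumo1r-led cells (bottom segment) give 37.2% to 48.2% of Tox and Tox2 UMIs in the M9 libraries and 4.62% to 9.94% in the C6M9 libraries.

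Calcineurin, NFAT and TCR-induced genes fell in part. Of 16 calcineurin, NFAT and TCR-induced genes, all measured, 6 were called in C6M9 against M9 over all T cells, each lower (edgeR, median log2 difference -0.28, against -0.02 over all genes tested). Of all genes tested, 4.2% were called lower. Egr2, an early TCR-induced factor, went from 19.8 and 14.7 CPM to 4.84 and 4.92 CPM and fell by 1.83 (SE 0.15; adjusted p = 0.000965). Egr3 fell by 1.13, Egr1 by 0.99, Nr4a1 by 1.15, Nr4a3 by 0.95 and Nfatc1 by 0.40. Without C6M9 replicate 1 the calls of Nr4a1 (adjusted p = 0.0651), Nr4a3 (0.103) and Nfatc1 (0.247) were lost, Nr4a3 also without M9 replicate 1 (0.0512) and Nfatc1 without C6M9 replicate 2 (0.121). The catalytic and regulatory calcineurin genes Ppp3ca, Ppp3cb, Ppp3cc and Ppp3r1 differed by 0.0004 to 0.06, with adjusted p of 0.697 to 0.998. Nr4a2 stood at 62.4 and 16.6 CPM in M9 and 3.68 and 15.3 CPM in C6M9, a spread within groups as wide as the difference between them (adjusted p = 0.122). Of 10 HBO1 complex genes, Jade2 was lower by 0.43 (adjusted p = 0.0270, but 0.204 and 0.0932 without C6M9 replicates 1 and 2) and the other 9 were not called, among them Kat7, the acetyltransferase itself (-0.04; adjusted p = 0.817).

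Genes of progenitor and follicular-like cells fell beside Tox: 9 of 14 were called, each lower (median -0.81, against -0.02 over all genes tested). Of all genes tested, 4.2% were called lower. This list, like the other gene lists here, was chosen with earlier results of these data known. Izumo1r and Eomes were also leading genes of the Izumo1r-led state, so the count is a description. Izumo1r fell by 2.31, Bcl6, a follicular programme factor, by 1.32, Eomes by 1.07, Slamf6, a progenitor surface marker, by 0.84 and Cxcr5, the follicle-homing receptor, by 0.91. Tcf7, which encodes the progenitor factor TCF1, was at 454 and 465 CPM in M9 and 482 and 513 CPM in C6M9 (log2 difference 0.11; adjusted p = 0.485). In the other direction, 4 of 13 effector genes (Tbx21, Cxcr6, Klre1, Ccl5) and 4 of 8 memory genes (Il7r, S1pr1, Klf2, Ly6c2) were called, each higher in C6M9; Tbx21 and Klf2 lost their calls without C6M9 replicate 1 (adjusted p = 0.222 and 0.187). Il7r, the interleukin 7 receptor, rose by 1.03 (SE 0.11; adjusted p = 0.00243). Among all genes, 1.68% were called higher. Ccl5, Il7r and S1pr1 were also leading genes of the memory-like state and Klre1 of the effector-like state, so these counts too are descriptions. Ccl5, counted here as an effector gene, was a memory marker in the naming of states.

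Of 19 inhibitory receptors, 6 were lower in C6M9 over all T cells and 1 higher (median log2 difference -0.27, against -0.02 over all genes tested). Of all genes tested, 4.2% were called lower and 1.68% higher. Tigit fell by 2.13, from 2.72 and 2.55 CPM to 0.595 and 0.608 CPM. Cd200 fell by 1.97, Cd200r1 by 1.50, Lag3 by 1.17, Btla by 0.61 and Pdcd1, which encodes PD-1, by 0.58 (adjusted p of 0.000837 to 0.0329, edgeR), and the Pdcd1 call was lost without C6M9 replicate 2 (0.0864). Lair1, a collagen receptor, rose by 0.62 (adjusted p = 0.0385), a call lost without either C6M9 library (0.136 without replicate 1, 0.0585 without replicate 2). Havcr2, which encodes TIM-3, a receptor of terminally exhausted cells, was not called (8.03 and 6.75 CPM in M9, 10.8 and 8.35 CPM in C6M9; adjusted p = 0.195). It was concentrated in 1 state: Gzma-led cells held 81.7 and 81.9 CPM in M9 and 56.4 and 53.6 CPM in C6M9, while no other state passed 12.9 CPM in any library.

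Co-expression was then examined in single cells. Cells thinned to 5000 UMIs were split by whether they held a Tox UMI, summed per library, and compared with the library as a block, so each library served as its own control. A cell without a Tox UMI is not a cell without Tox. Tox-detected cells had more RNA of 7 of the 15 inhibitory receptors that passed the filter and less of 2, in a test that called 9.21% of 10137 genes higher and 12.1% lower. The median over the 15 was 0.18, against 0.02 over all genes tested. Cd200 was at 163 against 123 CPM (detected against undetected) in M9 replicate 1, 135 against 75.8 in M9 replicate 2, 38.6 against 25.4 in C6M9 replicate 1 and 42.8 against 29.9 in C6M9 replicate 2. It was thus higher in the Tox-detected cells of all 4 libraries, by 0.53 on the log2 scale (SE 0.06; adjusted p = 2.39e-07, edgeR). Pdcd1 was at 43.5 against 37.6, 36.9 against 33.5, 31.6 against 22.6 and 29.6 against 21.3 CPM in the same order. Its difference was 0.30 (SE 0.08; adjusted p = 0.00687), again with the same sign in all 4, and it missed the threshold without C6M9 replicate 1 (0.0521). Btla (0.37), Cd200r1 (0.51), Lag3 (0.22), Cd96 (0.21) and Cd5 (0.20) were also higher. Cd200r1 missed the threshold without M9 replicate 1 (adjusted p = 0.0899) or C6M9 replicate 1 (0.235). Ctla4 (0.18; adjusted p = 0.103), Tigit (-0.18; 0.735), Cd160, Cd101, Lair1 and Vsir were not called, and Entpd1, Klrg1, Lilrb4a and Pvrig did not pass the filter.

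The receptors that were lower in Tox-detected cells were Havcr2, which is highest in the Tox-poor Gzma-led state, and Cd244a, an NK and T cell receptor. Havcr2 was at 2.29 against 7.44, 2.09 against 6.77, 2.03 against 9.16 and 2.16 against 6.50 CPM in M9 replicates 1 and 2 and C6M9 replicates 1 and 2, a log2 difference of -1.79 (SE 0.21; adjusted p = 3.23e-07). Cd244a differed by -1.43 (SE 0.32; adjusted p = 0.00173) and was at most 3.83 CPM. Sums were then made within states, with library and state as the block. These fits take each of 34 library and state pairs as a unit, and pairs from the same library are not independent, so their p-values rest on more units than there are libraries. In them neither was called (Havcr2 -0.51, adjusted p = 0.397; Cd244a -1.01, adjusted p = 0.124). Within states 3 receptors were called, each higher, where 0.691% of genes were called higher and 2.6% lower. These were Cd200 (0.31; adjusted p = 5.81e-06), Btla (0.29; 0.0102) and Pdcd1 (0.27; 0.0385). Lag3, called over all T cells, was at 0.03 within states (SE 0.04; adjusted p = 0.849). The median receptor difference within states was 0.02, against -0.01 over all genes.

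**Figure D4:**
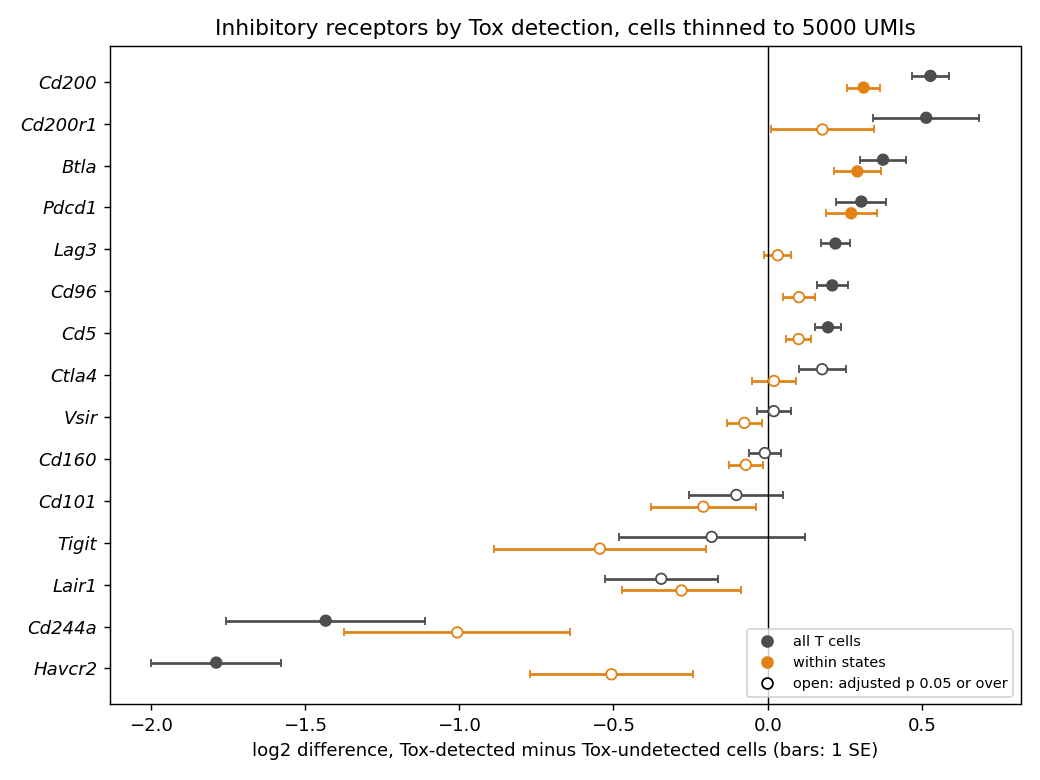
Points are log2 differences between Tox-detected and Tox-undetected cells for the 15 inhibitory receptors that passed the filter, over all T cells (grey) and within states (orange), with bars of 1 SE; filled points have an adjusted p under 0.05. Cd200, Btla and Pdcd1 are filled in both, whereas Lag3 lies near 0 within states and Havcr2 loses its call there.

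The number of receptors seen per cell changed little with the number of Tox UMIs. The 8 receptors counted were Pdcd1, Lag3, Havcr2, Tigit, Ctla4, Btla, Cd160 and Cd244a, without Cd200. Of these, M9 replicate 1 cells showed a mean of 1.39, 1.52, 1.50 and 1.51 with 0, 1, 2 and 3 or more Tox UMIs. In M9 replicate 2 the means were 1.23, 1.26, 1.36 and 1.40. In C6M9 they were 0.876, 0.966, 0.941 and 0.859 in replicate 1 and 0.929, 1.01, 0.955 and 1.29 in replicate 2, the last over 41 cells. Cells without any of the 8 made up 22.0% and 23.6% of Tox-undetected M9 cells and 39.4% and 37.5% of Tox-undetected C6M9 cells. Among Tox-detected cells the shares were 16.9% and 24.1% in M9 and 36.4% and 35.4% in C6M9, so M9 replicate 2 went the other way. Split by any against no Tox UMI, the groups stood further apart than the 2 classes within a library: M9 cells without a Tox UMI averaged 1.39 and 1.23 receptors, C6M9 cells with one 0.954 and 1.01. No cell type that lacks all 8 receptors was in the files, so the free RNA part of these counts was not measured.

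Beyond receptors, most progenitor genes were higher in Tox-detected cells. The test called 9.21% of all genes higher over all T cells and 0.691% within states. Of 14 progenitor and follicular-like genes, 11 were called, each higher (median 0.34; Tcf7 missed the threshold without M9 replicate 1, at 0.0552), and within states 5 were higher (Izumo1r, Myb, Ikzf2, Eomes, Slamf6). Myb, a factor of stem-like CD8 cells, was at 264 against 175 and 269 against 166 CPM in the M9 libraries and at 153 against 95.7 and 177 against 110 CPM in the C6M9 libraries, higher by 0.65 (SE 0.04; adjusted p = 2.84e-12). Of the calcineurin, NFAT and TCR-induced genes, Nr4a2 (0.74), Egr2 (0.60), Nr4a3 (0.45), Egr1 (0.40) and Nfatc1 (0.21) were the 5 of 16 called, each higher (Nr4a3 not without M9 replicate 1, at 0.0636). Within states Nr4a2 alone was called (0.42; adjusted p = 0.000128). Among 10 HBO1 complex genes, Jade2 (0.26) and Brd1 (0.15) were called over all T cells and lost their calls within states (adjusted p = 0.900 and 0.624) and without M9 replicate 1 (0.330 and 0.257) or C6M9 replicate 1 (0.0669 and 0.0619), Brd1 also without C6M9 replicate 2 (0.135).

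The largest rises in Tox-detected cells, by a rule on size, level and sign in all 4 libraries, were Klrb1f (0.86), Smim3 (0.83), Izumo1r (0.78), Sox4 (0.76), Nr4a2 (0.74), Ttc28 (0.74), Kcnc1 (0.71), 1700019D03Rik (0.69), Bcl6 (0.68) and Cd22 (0.67). Klrb1f, Smim3, Izumo1r, Sox4, Nr4a2 and Cd22 were also called within states. The largest falls were Ifitm1 (-3.33), Gzmb (-2.83), Gzma (-2.47), Lgals3 (-1.87) and 1500009L16Rik (-1.83), all leading genes of the Gzma-led state, followed by the cell-cycle genes Cenps, Ccnb2, Cdkn3, Rrm2 and Ccna2 (-1.35 to -1.20). Within states Gzmb, granzyme B, differed by -0.73 (adjusted p = 0.00115, edgeR) and Gzma by -0.31 (0.0174). Of all genes tested, 12.1% were called lower over all T cells and 2.6% within states. Of 12 effector genes measured, 5 were called over all T cells and 2 within states, each lower; Cxcr6 and Tbx21 lost their calls without M9 replicate 1 (0.0664 and 0.0715), and Tbx21 also without M9 replicate 2 (0.0611). Without M9 replicate 1 the test called 1154 genes in place of 2165.

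Tox-detected cells of the groups were compared with each other, to ask whether cells that all held a Tox UMI still differed. Izumo1r-led cells made up 48.8% and 40.2% of these cells in M9 and 6.99% and 9.10% in C6M9, so they were not matched for state. Of 13 receptors tested, 4 were lower in C6M9 and 1 higher (median -0.48, against -0.002 over all genes), where 3.49% of 9998 genes were called lower and 2.67% higher. Lag3 was at 209 and 205 CPM in M9 and 87.5 and 90.4 CPM in C6M9 and fell by 1.22 (SE 0.11; adjusted p = 1.60e-08, edgeR). Cd200 was at 166 and 137 CPM in M9 and 38.5 and 42.6 CPM in C6M9 and fell by 1.92 (SE 0.13). Both differences left the libraries of the groups well apart. Cd200r1 fell by 1.13 and Btla by 0.48, calls that were each lost without M9 replicate 1 (adjusted p = 0.0694 and 0.178) or C6M9 replicate 2 (0.247 and 0.222), and Btla also without C6M9 replicate 1 (0.428). Vsir, which encodes the checkpoint protein VISTA, rose by 0.52 (adjusted p = 0.00588), a call lost without C6M9 replicate 1 (0.333). Pdcd1 differed by -0.44 (SE 0.15; adjusted p = 0.0805). Tox2 also fell among Tox-detected cells, from 9.10 and 9.83 CPM to 2.48 and 4.60 CPM (log2 difference -1.45, SE 0.33; adjusted p = 0.00561), a call lost without C6M9 replicate 1 (0.313). Leaving out C6M9 replicate 1 or 2 gave 175 or 358 genes called in place of 616, and leaving out M9 replicate 1 or 2 gave 941 or 1046.

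Whether the Tox-detected against undetected difference itself varied with the group was tested by an interaction term, which called 106 of 10529 genes (1.01%), 99 of them higher in C6M9 (0.94%). Among 15 receptors edgeR called 0, with 1 (Ctla4) at an unadjusted p under 0.05, and DESeq2 called 0 of the 3 to which it gave an adjusted p. Gzmb (1.38), Gzma (0.50) and Cxcr6 (0.63) of the effector list and Ly6c2 (0.49), S1pr1 (0.45) and Il7r (0.28) of the memory list were called. For each, the log2 difference of Tox-detected minus undetected cells was higher in C6M9 than in M9. Of these 6, Ly6c2 alone was called in every fit with a library left out; the other 5 lost their calls without at least 2 of the 4 libraries, M9 replicate 1 among them (adjusted p = 0.246 for Gzmb, 0.611 for Gzma, 0.812 for Cxcr6, 0.767 for S1pr1 and 0.295 for Il7r). The count was 32 to 70 genes when a library was left out: 42 and 70 without M9 replicates 1 and 2, and 38 and 32 without C6M9 replicates 1 and 2.

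Tox and Tox2 tended to be found in the same cells, weakly. At 5000 UMIs, 64.3% and 69.4% of Tox2-detected M9 cells also held a Tox UMI, against 57.2% and 61.1% of the other M9 cells. In C6M9 the shares were 34.6% and 53.8% of 26 Tox2-detected cells in each library, against 32.0% and 38.7%. Tox2 was higher in Tox-detected cells by 0.50 (SE 0.19), with an adjusted p of 0.0546 (edgeR), and had the same sign in all 4 libraries. At that depth fewer than 50 Tox2-detected cells were left in 3 libraries, so the reverse comparison was made at 10000 UMIs in the 3 libraries with at least 50 such cells (237, 88 and 58 cells), leaving out C6M9 replicate 2 with 33. There Tox was at 252 against 179, 282 against 214 and 110 against 78.1 CPM (M9 replicates 1 and 2, C6M9 replicate 1), higher by 0.46 (SE 0.08; adjusted p = 0.000152) and by 0.35 within states (adjusted p = 0.0204). Cells under 10000 UMIs are missing from this comparison: 1125 of 4100, 63 of 1199 and 783 of 2889 T cells, in the same order of libraries.

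Tox2-detected cells had more RNA of progenitor genes, and few receptors were called. The test called 230 of 10591 genes, 1.1% higher and 1.08% lower. Of 14 progenitor and follicular-like genes 7 were higher (2 within states, Eomes and Xcl1), led by Eomes (0.82), Cxcr5 (0.71), Xcl1 (0.55) and Izumo1r (0.52). Of these 7, Cxcr5 was not called without M9 replicate 1 (adjusted p = 0.424), Xcl1 without M9 replicate 2 (0.0761), Slamf6 without C6M9 replicate 1 (0.0508), Myb without either M9 library (0.159 and 0.312) and Id3 without M9 replicate 2 or C6M9 replicate 1 (0.316 and 0.0931). Of 15 receptors only Cd200r1 was called (0.78; adjusted p = 0.0409), a call lost without either M9 library and within states (0.427), and the receptor median was -0.06. Of 8 memory genes 3 were called, each lower: Ly6c2 (-1.34), Il7r (-0.95) and Ccr7 (-0.71), each also called within states. Among the largest rises were Mgarp (1.99), Tubb2b (1.86), Gzmk (1.71), Tubb2a (1.51), Kcnc1 (1.49), Klrb1f (1.24), Arsb (1.21), Nebl (1.20) and Cd68 (1.18); Mgarp and Nebl lost their calls without M9 replicate 2 (adjusted p = 0.917 and 0.124). Gzmk encodes granzyme K; of these genes all but Nebl were called within states, where 0.274% of genes were called higher and 1.35% lower. The largest falls were Gzma (-3.72), Ifitm1 (-2.09), Gzmb (-1.93), Lgals3 (-1.70) and Srm (-1.54). Within states, over 10 library and state pairs, Ifitm1 and Srm were called, and Gzma (adjusted p = 0.338), Gzmb (0.0518) and Lgals3 (0.530) were not. Irf4 (-0.95) and Egr3 (-0.94), TCR-induced factors, were lower in Tox2-detected cells over all T cells, with adjusted p of 0.0918 and 0.384 within states and of 0.131 and 0.349 without M9 replicate 2. Without M9 replicate 2 the test called 141 genes.

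Genes whose level followed Tox over the 28 sums were ranked among 7392 genes by the correlation of log2(CPM + 1). The 10 closest were Itgal (r = 0.94), Tle3 (0.93), Son (0.93), Cyth3 (0.92), Slamf6 (0.92), Tbc1d2b (0.92), Ptprc (0.91), Nek7 (0.91), Gpr174 (0.91) and Sox4 (0.90). Itgal encodes the integrin chain CD11a and Ptprc the phosphatase CD45. Of 8 receptors examined, Lag3 was closest (r = 0.80, place 106), then Tigit (0.70), Cd200 (0.67), Btla (0.42), Pdcd1 (0.40) and Ctla4 (0.36), whereas Havcr2 (-0.47) and Cd244a (-0.58) ran against Tox. Tigit, Havcr2 and Cd244a, with means of 1.55, 3.48 and 1.76 CPM, were under the 10 CPM needed to be ranked. Among the genes closest to Tox2 were Scd2 (0.87), Wnt10a (0.81), Ubac2 (0.78) and Cd22 (0.78), and Pdcd1 stood at -0.01 and Lag3 at 0.42. The sums share libraries, depth and clustering, so these values are descriptions with no test.

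**Figure D5:**
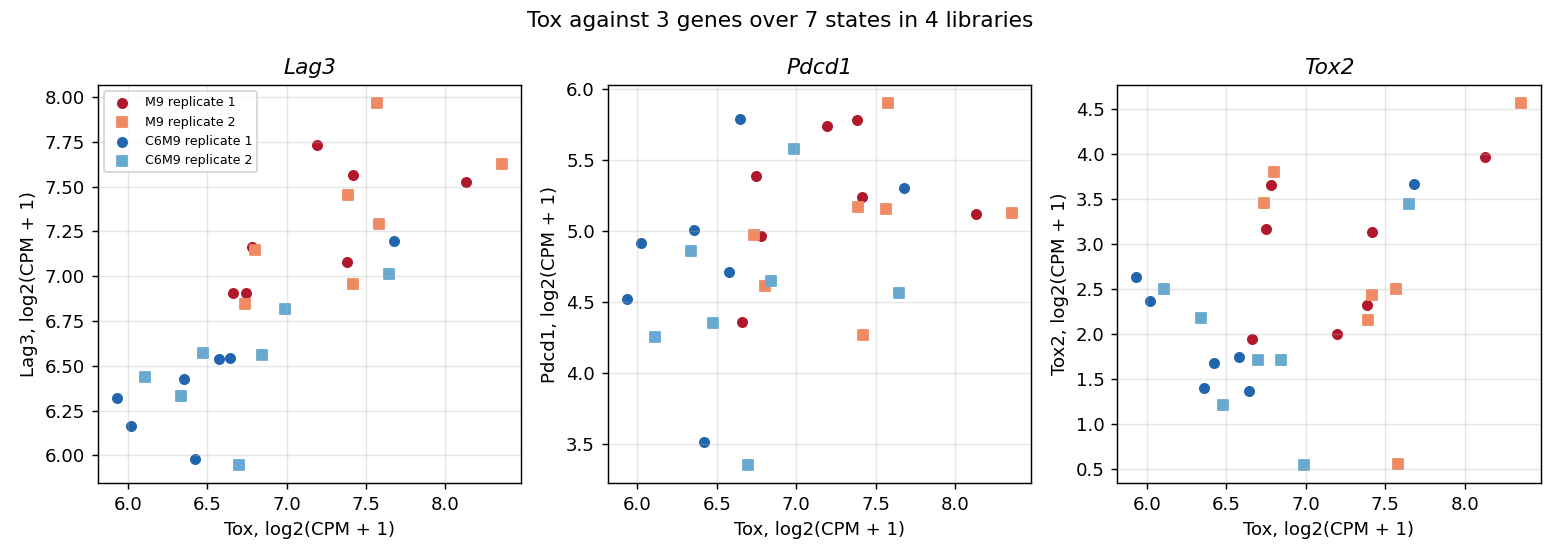
Each point is 1 of 7 tested states in 1 of 4 libraries, with Tox on the x axis and Lag3 (left), Pdcd1 (middle) or Tox2 (right) on the y axis, both as log2(CPM + 1). Lag3 rises with Tox across the 28 points (r = 0.80), Pdcd1 (0.40) and Tox2 (0.41) less closely.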

How the data were processed

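The authors deposited raw UMI counts per gene and cell (10x Genomics 3′ libraries; Cell Ranger 6.0.0, mm10, per the submitters' processing notes). The annotation release is not given in the sources used here. Filters of 500 genes, 1000 UMIs and a mitochondrial share of up to 10% kept 10324 of 11113 barcodes. Scrublet marked under 0.5% of cells, so its highest scores were left out at 0.8% per 1000 barcodes (277 cells). Clustering (scanpy 1.11.5) used 2000 variable genes, 30 components and Leiden resolution 0.6. A cluster took a type name with 3 markers among its 10 leading genes, a minimum set after the clusters were seen. Removing 126 B cell-like cells (1 cluster) left 9921 T cells.

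Counts were summed per library, and per state with at least 50 cells in each library, and compared in edgeR 4.0.16 (TMM, filterByExpr, quasi-likelihood, two-sided, Benjamini-Hochberg at 0.05 over all genes tested). CPM over all T cells are TMM-scaled; CPM by state are not. Shares used cells thinned to 5000 UMIs. Sums within states took at least 10 cells. On simulated data 83% of genes changed 1.5-fold were recovered over all T cells with 4.19% false calls, and 22% to 67% within states. Members and gene lists were chosen with earlier results of these data known. Named genes followed a rule: the 10 largest called rises and falls by detection with a mean of at least 10 CPM and 1 sign in every library, and the 10 (Tox) or 5 (Tox2) highest correlations. A gene that met this rule is not reported here.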

Additional observations from a re-analysis of the deposited data

How the results depend on the processing

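Of 572 alternative values 440 were labelled the same as the main value and 1 reversed: Vsir in Tox-detected cells was -0.013 at 2000 UMIs per cell. For gene tests, same meant the same side of the threshold, with direction checked only where a fit was called. For counts it meant a value within a set fold of the main one. For shares and equally weighted levels it meant a change smaller than the larger SD of the groups. Over all T cells both genes stayed called lower under all 10 alternatives each, leave-one-out included (Tox -1.25 to -0.93, Tox2 -1.65 to -1.44).

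States calling Tox numbered 6 with no filter on low counts and 5 with DESeq2, and 1 to 6 with a library left out. States calling Tox2 numbered 2 with no filter, 2 with the replicate block, 0 at 5% mitochondrial UMIs and 3 with clusters made without Tox, Tox2 and the receptors, and 0 to 2 with a library left out. The interaction adjusted p for Tox ran from 0.0406 to 0.891 with a library left out.

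By Tox detection, genes called were 502 at 2000 UMIs, 654 with DESeq2, 334 within states, and 1154 to 2092 with a library left out. Receptors called higher were 2 at 2000 UMIs, 2 with DESeq2 and 3 within states; receptors called lower were 1 at 2000 UMIs, 1 with another thinning seed, 0 with DESeq2 (which gave 7 of 19 receptors no adjusted p, Havcr2 and Cd244a among them), 0 within states and 1 to 2 with a library left out. By Tox2 detection, 78 genes were called with DESeq2 and 141 to 297 with a library left out; receptors called higher were 0 within states, 0 with DESeq2 and 0 to 1 with a library left out. That contrast at 5000 and 2000 UMIs was not run, since 3 libraries had under 50 Tox2-detected cells. The detection by group interaction called 33 genes at 2000 UMIs, 13 with DESeq2 and 32 to 70 with a library left out.

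In Tox-detected cells, C6M9 against M9, genes called were 198 at 2000 UMIs, 223 with DESeq2 and 175 to 1046 with a library left out. Receptors higher were 0 at 2000 UMIs, 0 with another seed, 0 with DESeq2 and 0 to 1 with a library left out; receptors lower were 2 with DESeq2 and 2 to 6 with a library left out. Over all T cells, receptors higher were 4 with no filter, 2 with DESeq2, 2 with the replicate block, 0 at 5% mitochondrial UMIs and 0 to 2 with a library left out. The difference in shares was -17.3 (2000 UMIs) and -17.8 (no thinning) percentage points for Tox, and -1.05 and -6.28 for Tox2. Like-numbered libraries did not deviate together (r = -0.06 over 13652 genes), so numbers were not taken as pairs; with the replicate block Tox fell by 1.09 and Tox2 by 1.56. Alternatives added after seeing the data were the Tox2 contrast at 10000 UMIs and, for the detection contrasts, doublets kept. Depth limits Tox2, with 0 to 278 UMIs per state and library.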
